A study of Danio rerio with 72 samples.

Results

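Crystallins are the proteins that fill the fibre cells of the eye lens. The genes described here are the crystallin genes of the zebrafish, chosen by name: entries whose symbol starts, in any case, with CRYAA, CRYAB, CRYBA, CRYBB, CRYG or CRYBG, with cryptochromes left out. The rule found 60 of the 31902 entries of the count table. They comprised 1 alpha-A gene (CRYAA), 2 alpha-B genes that both carry the symbol CRYAB, 7 beta-A genes, 6 beta-B genes and 3 beta/gamma-like genes (crybgx, crybg1a, crybg1b). The remainder were gamma crystallins, namely 32 of the M type, 3 named crygmx, crygmxl1 and crygmxl2, 2 of the N type and 4 of the S type. Of the M type, 21 were numbered copies named crygm2d1 to crygm2d21.

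Alpha crystallins are small heat shock proteins that act as chaperones, and in mammals the alpha-B protein is also made outside the lens. Beta and gamma crystallins share a fold, have no known enzyme activity and pack densely enough to give the lens its refractive power; the M type of gamma crystallin, rich in methionine, is typical of the hard lenses of fish. Lens fibre cells make these proteins in bulk and then lose their nuclei, and fibre differentiation is driven by transcription factors such as those of the MAF, PROX and SOX families. Of the beta/gamma-like genes, those of the CRYBG1 type, here crybg1a and crybg1b, code for larger proteins that carry crystallin-type domains. In mammals, genes of that type are expressed in tissues other than the lens. This description is not extended to crybgx.

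The 72 libraries came from the SR4G reporter line, carried by treated and control fish alike, in which a glucocorticoid-responsive promoter expresses d4EGFP, a short-lived green fluorescent protein. From fertilization to day 6 the fish were kept in fluoxetine (54 ug/L), an antidepressant that blocks the uptake of serotonin, or in vehicle (0.0053% ethanol). Larval libraries were made from pools of 22 dissected larvae at 6 days of age, and adult libraries from the hypothalamus or the telencephalon of 5 pooled fish at 6 months. The titles of the larval samples carry the word whole, while their tissue label and the series' design text name the head, and they are called heads here after the tissue label. In each tissue there were 4 groups of 6 libraries: vehicle unstressed, vehicle stressed, fluoxetine unstressed and fluoxetine stressed. The labels do not give the kind of stressor or the time from stress to sampling, nor do they say that libraries of a group came from separate clutches, so p-values measure the spread between these pools.

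Total counts per library, in units of 1e6, were 10.2 to 19.9 in larval heads and 13.2 to 22.8 in the adult regions. The reporter transcript d4EGFP had a median of 23.2 CPM in vehicle unstressed and 86.6 CPM in vehicle stressed larval heads, and 32 and 108 CPM in the fluoxetine groups, with no overlap between stressed and unstressed libraries of either treatment. CPM is a count divided by the library's total count in units of 1e6, with totals scaled by the TMM method. Among 18 genes of lens structure, summed levels spanned 597 to 3491 CPM in larval heads and 19.3 to 48.1 CPM in adult libraries. A list of 11 telencephalon genes summed to 648 to 935 CPM in telencephalon libraries and to 69.7 to 164 CPM in the hypothalamus. A list of 10 hypothalamus genes summed to 321 to 653 CPM in the hypothalamus and to 53.3 to 473 CPM in the telencephalon.

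In larval heads the crystallin genes held 2.04% to 12.5% of the counts of a library, and 29 of the 60 had a mean of at least 1000 CPM. Gamma-M genes held the largest share of counts in each of the 4 groups, with a median of 4.30% in vehicle stressed and 4.72% in fluoxetine unstressed libraries, nearly all of it in the 21 crygm2d copies (4.27% and 4.70%). Beta-A and beta-B genes followed, with medians of 1.98% and 2.05% in vehicle stressed libraries. Counts were not divided by gene length, so these shares rank families by sequenced fragments and not by molecules. The crygm2d genes are close copies, so reads may have been divided among them in a way that the counting method decides, and a single crygm2d value is uncertain.

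The alpha crystallins had fewer counts. CRYAA had a median of 286 CPM in vehicle stressed heads, within a range of 198 to 419 CPM. The CRYAB entry ENSDARG00000101380 stayed between 0.0864 and 2.67 CPM in larval heads, and the other, ENSDARG00000042621, did not exceed 0.524 CPM. Gamma-S genes, too, had few counts: their 4 members together reached 11.8 CPM in the highest library. In 6 members no larval library reached 1 CPM; these were CRYAB (ENSDARG00000042621), CRYBB3, crygm4, crygm6, CRYGS (ENSDARG00000041171) and crygs3. They failed the filter on low counts, which left 54 members tested in larval heads.

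The members with the most counts were lowest at the median in vehicle unstressed heads. CRYBB1, a major beta crystallin of lens fibres, had a median of 5586 CPM in vehicle unstressed, 8042 in vehicle stressed, 9016 in fluoxetine unstressed and 8649 CPM in fluoxetine stressed heads. Its lowest vehicle unstressed library had 751 CPM and its highest 9478 CPM, so that group spanned the widest range and overlapped the other 3. The same held for crybb1l2 (692 to 9488 CPM) and crybb1l1 (573 to 8354 CPM) among the beta-B genes. Among the beta-A genes, vehicle unstressed libraries ran from 665 to 6058 CPM for cryba1b, from 682 to 5893 CPM for cryba1l1 and from 891 to 5198 CPM for CRYBA4.

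The gamma-M copies with the most counts, crygm2d10, crygm2d13 and crygm2d2, had medians of 2345, 2724 and 1868 CPM in vehicle unstressed heads and of 3828, 4043 and 3033 CPM in vehicle stressed heads. Medians of crygmxl2 were 1508 CPM in vehicle unstressed and 2812 CPM in vehicle stressed heads. Its relatives crygmx and crygmxl1 were lowest at the median in fluoxetine stressed heads (752 and 0.630 CPM). CRYGS (ENSDARG00000042992), an S-type gamma gene, had medians between 4.45 and 5.16 CPM in the 4 groups. The beta/gamma-like crybgx had a median of 983 CPM in vehicle unstressed and 1758 CPM in vehicle stressed heads, while crybg1b did not follow that order (31.9 and 28.9 CPM), nor did crybg1a (22.7 and 13.35 CPM).

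**Figure D1:**
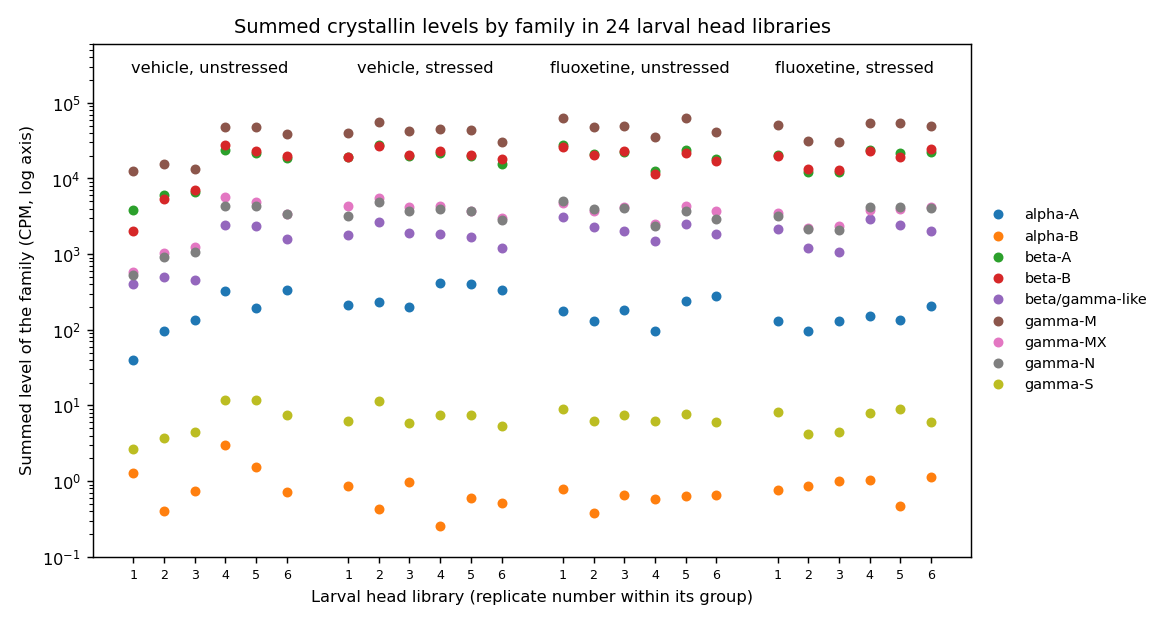
Summed level of each crystallin family in CPM (log axis) in each of the 24 larval head libraries, 6 per group in order of replicate number; each point is 1 library. Libraries 1 to 3 of the vehicle unstressed group lie below the rest in 6 families, with gamma-M at 12570 to 15330 CPM there against at least 29940 CPM elsewhere. Alpha-A, alpha-B and gamma-S overlap. The beta/gamma-like sum is mostly crybgx (mean 1775 CPM, against 15.8 CPM for crybg1a and 37.3 CPM for crybg1b).

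Libraries of the vehicle unstressed group fell into separate sets before any comparison between groups. Libraries 1, 2 and 3 had 2.04%, 3.19% and 3.34% of their counts in crystallins, and libraries 4, 5 and 6 had 11.3%, 10.6% and 9.25%. The other 18 larval libraries lay between 5.94% and 12.5%. Libraries 1 to 3 were therefore lower than every other larval library in total crystallin counts. Bulk RNA cannot tell fewer lens cells from less crystallin RNA per cell.

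The deficit was shared by most members but was unequal. Of the 54 tested members, 44 were lower in libraries 1 to 3 than in each of the other 21 larval libraries, where 14.2% of all genes tested were lower in this way. Against libraries 4 to 6 of the same group 49 members were lower without overlap, against 28.4% of all genes tested. The ratio of the median CPM of libraries 4 to 6 to that of libraries 1 to 3 had a median of 3.52 over the members and 0.986 over all genes tested. For the 21 crygm2d genes the ratio ran from 1.49 (crygm2d9) to 4.55 (crygm2d3). For the beta-A genes it ran from 2.87 to 9.0, the highest in cryba1l2.

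A few gamma genes were nearly absent from libraries 1 to 3. The level of crygm7 was 0.0549, 0.202 and 0.319 CPM in libraries 1, 2 and 3, and 37.96, 34.8 and 6.76 CPM in libraries 4, 5 and 6. The former amount to 12 counts over the 3 libraries, so the ratio of 172 is imprecise. The genes crygm1, crygm2a and crygs4 had 11, 8 and 9 counts in libraries 1 to 3 and 323, 142 and 172 counts in libraries 4 to 6. Among members at higher levels, CRYGN (ENSDARG00000102129) was at 4.72 to 8.90 CPM in libraries 1 to 3 and at 75.8 to 102 CPM in libraries 4 to 6. Its relative CRYGN (ENSDARG00000030411) was at 527 to 1063 CPM and at 3299 to 4261 CPM.

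In 3 members the ratio was below 1. The level of crybg1a was 44.8, 41.2 and 32.7 CPM in libraries 1 to 3 and 10.4, 5.62 and 12.7 CPM in libraries 4 to 6. It was the 1 tested member (1.85%) higher in libraries 1 to 3 than in the other 21 larval libraries, where 20.1% of all genes tested were. For crybb1l3 the values were 6.70, 8.49 and 11.03 CPM and then 2.44, 1.54 and 11.7 CPM, so library 6 went with libraries 1 to 3. The gene crygmxl1 had 3.13, 4.10 and 4.79 CPM against 4.16, 3.13 and 2.52 CPM, which overlap.

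Markers of other tissues differed between the same libraries. The summed level of 31 skeletal muscle genes was 32210 to 40390 CPM in libraries 1 to 3 and 5256 to 9498 CPM in libraries 4 to 6, and that of 16 liver genes was 2835 to 3590 CPM and 238 to 924 CPM. The 12 neuronal genes summed to 1757 to 3229 CPM and 3744 to 4763 CPM, and the 18 lens structure genes to 597 to 1258 CPM and 2492 to 3491 CPM. The 17 entries of other retina and pigment epithelium summed to 1652 to 2444 CPM in libraries 1 to 3 and to 707 to 969 CPM in libraries 4 to 6, higher in the former without overlap. Photoreceptor genes, 36 in number, summed to 8461 to 16100 CPM and 7299 to 15420 CPM, which overlap. None of these lists had a member at 0 in every larval library. Their part in the crystallin difference was not tested.

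**Figure D2:**
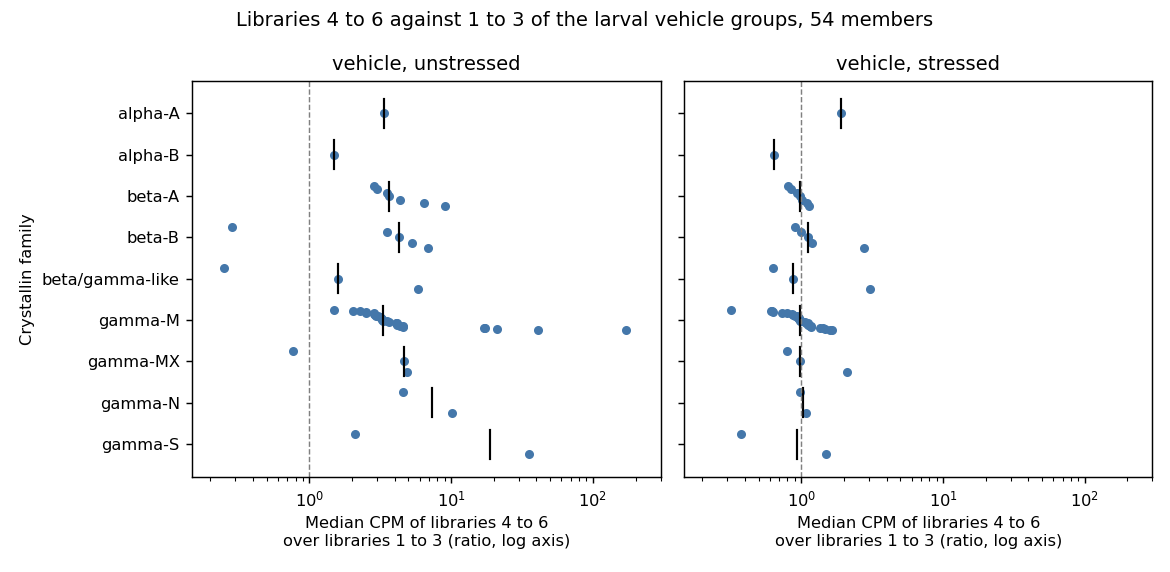
Ratio of the median CPM of libraries 4 to 6 to that of libraries 1 to 3 (log axis) for each of the 54 tested members by family, in the larval vehicle unstressed group (left) and vehicle stressed group (right); bars are family medians. In the unstressed group the median over members is 3.52 with a range of 0.252 to 172, and in the stressed group 0.988 with a range of 0.321 to 3.06.

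Stressed vehicle libraries showed no such loss, but a small number of members separated libraries 1 to 3 from 4 to 6 there too. Libraries 1 to 3 were lower without overlap in 5 members (9.26%, against 25.6% of all genes tested) and higher in 6 (11.1%, against 22.0%), shares under those of all genes tested. The lower were CRYAA, crygmxl1, crygm5, crybg1a and crybb1l3, and the higher crybg1b, cryba1l2, crygm7, crygm1, crygm2b and crygs4. For crygm7 the values were 22.7, 30.4 and 27.3 CPM in libraries 1 to 3 and 9.78, 8.76 and 5.39 CPM in libraries 4 to 6. For crybb1l3 they were 3.29, 4.49 and 3.89 CPM and then 14.6, 10.7 and 9.01 CPM.

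Stress in vehicle larvae changed no crystallin gene past the threshold. In the edgeR quasi-likelihood fit 0 of 54 members had an adjusted p under 0.05, where 21.2% of all genes tested had (5.82% higher, 15.4% lower). At an unadjusted p under 0.05 there were 7 members, 6 higher and 1 lower, and DESeq2 called 3 higher (crygm5, crygm2e, crygm2d5). Shares of all genes at the unadjusted threshold or with DESeq2 are not given here, so these counts have no background beside them. The fitted folds were above 0 in 49 members, with a median log2 fold change of 0.55 against -0.03 over all genes tested. The lowest adjusted p were those of the gamma-M gene crygm2d5 (log2 fold change 0.83 ± 0.30 SE, adjusted p = 0.053) and of CRYAB (ENSDARG00000101380; -1.22 ± 0.47, adjusted p = 0.0616), the chaperone. That CRYAB entry had 0.0864 to 0.716 CPM in vehicle stressed and 0.190 to 2.67 CPM in vehicle unstressed heads. A count of 0 allows about 0.189 CPM in a larval library of median depth, counting error alone considered. Larval folds of CRYAB are therefore uncertain. Abundant members did not pass either, for instance CRYBB1 (0.66 ± 0.40, adjusted p = 0.243) and cryba1b (0.65 ± 0.36, adjusted p = 0.196). In the same comparison 25 of 31 skeletal muscle genes and 7 of 16 liver genes were lower in stressed heads. Of 34 photoreceptor genes 13 were higher and 0 lower, and of 17 entries of other retina and pigment epithelium 3 were higher and 1 lower. The part of these lists in the crystallin folds was not tested.

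The sign of the median fold rested on libraries 1 to 3 of the vehicle unstressed group. Without them the median log2 fold change of the members was -0.10, 11 folds were above 0 and 43 below, and 0 members passed. With libraries 1 to 3 of every group as the whole data, 46 members were higher and 3 lower (30.9% and 34.8% of all genes tested). This split was chosen after seeing the data. Its vehicle unstressed libraries were those already seen to be low in most crystallins, so these counts restate that difference. With libraries 4 to 6 of every group, 0 passed in either direction (2.8% and 0.859% of all genes tested).

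Stress in fluoxetine larvae changed no member past the threshold either. There 0 of 54 passed, where 2.33% of all genes tested did (1.9% higher, 0.439% lower), and 0 had an unadjusted p under 0.05. DESeq2 called 0. The median log2 fold change was -0.14 over the members and -0.03 over all genes tested, with 49 folds below 0. In stressed libraries the summed level of the crystallins was 61310 to 112800 CPM (median 103600) and in unstressed ones 65950 to 129900 CPM (median 102400), so the groups overlapped widely. The largest fold of the 54 was that of CRYAB (ENSDARG00000101380), which had 0.287 to 0.605 CPM unstressed and 0.402 to 0.925 CPM stressed (log2 fold change 0.81 ± 0.50, adjusted p = 0.548). The difference between the stress effects in vehicle and fluoxetine larvae passed in 0 of 54 members and in 0.133% of all genes tested (0.114% higher, 0.0197% lower), with 5 members at an unadjusted p under 0.05 and 0 called by DESeq2.

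Fluoxetine in unstressed larvae gave 2 members higher and 1 lower in edgeR, where 10.8% of all genes tested passed (3.55% higher, 7.26% lower). The higher were the gamma-M copies crygm2d17 and crygm2d18, and the lower was crygmxl1, a gamma crystallin. The level of crygm2d17 ran from 353 to 879 CPM in vehicle (median 604) and from 783 to 1708 CPM in fluoxetine (median 1163), a log2 fold change of 0.96 ± 0.26 (adjusted p = 0.0257). The level of crygm2d18 ran from 731 to 2109 CPM (median 1344) and from 1754 to 3239 CPM (median 2448), a log2 fold change of 0.84 ± 0.27 (adjusted p = 0.0465). Vehicle and fluoxetine values overlapped for both.

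The calls on both crygm2d genes were lost without libraries 1 to 3 of the vehicle unstressed group. The log2 fold change of crygm2d17 was then 0.57 (adjusted p = 0.242) and that of crygm2d18 0.33 (adjusted p = 0.439). The median over the members went from 0.67 to 0.05, and 2 members passed, both lower, against 1.73% of all genes tested: crygmxl1, and cryba1l2 (log2 fold change -1.39 ± 0.31, adjusted p = 0.0183), which had not passed with all libraries (-0.55 ± 0.50, adjusted p = 0.473). In the data of libraries 1 to 3 of every group 48 members were higher and 3 lower, against 26.6% and 31.3% of all genes tested, and in those of libraries 4 to 6 there were 0. The former counts again restate the low level of most crystallins in vehicle unstressed libraries 1 to 3. DESeq2 called 13 higher and 2 lower on all libraries. The share of all genes that DESeq2 called is not given here, so this count has no background beside it. The higher were crygm5 and 12 crygm2d copies, and the lower crygmxl1 and CRYAB (ENSDARG00000101380), at -1.33 ± 0.48 in edgeR (adjusted p = 0.0667).

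**Figure D3:**
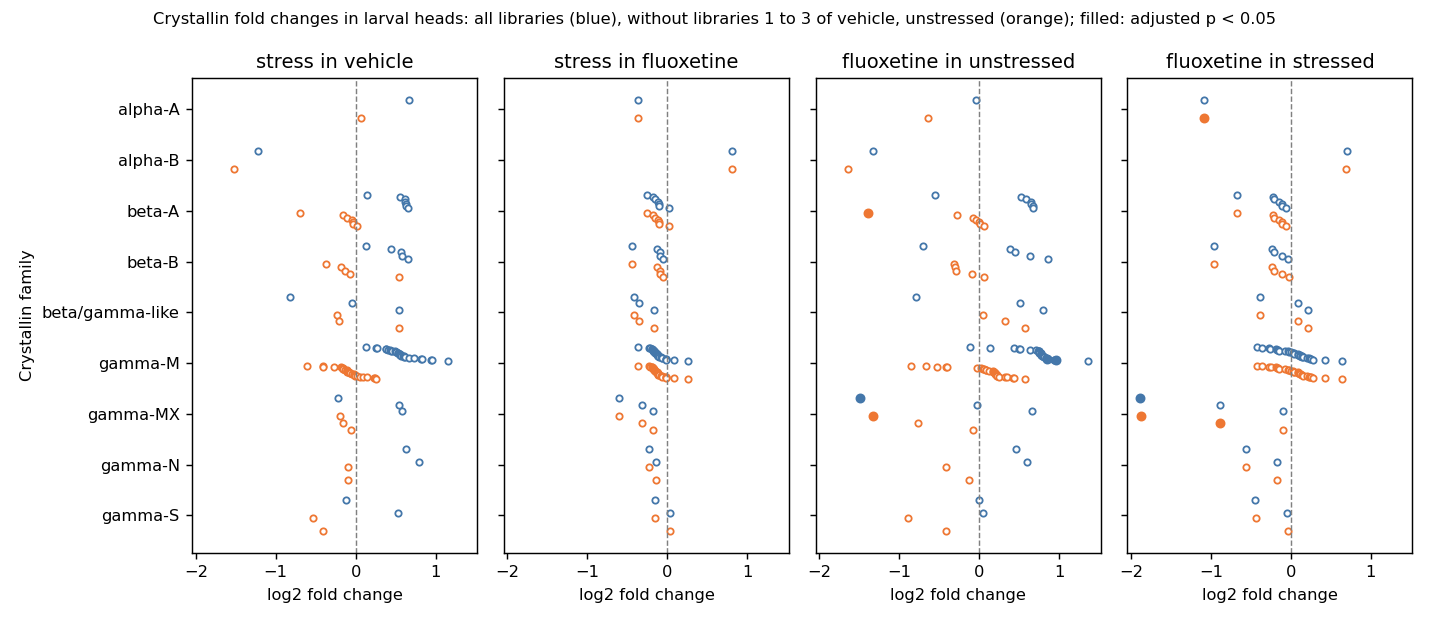
Log2 fold changes of the 54 tested crystallin genes by family in the larval comparisons, with all libraries (blue) and without libraries 1 to 3 of the vehicle unstressed group (orange); filled points have an adjusted p under 0.05 in edgeR. For stress in vehicle the median moves from 0.55 to -0.10 and for fluoxetine in unstressed larvae from 0.67 to 0.05, while the contrasts that do not use that group keep their folds.

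Among the crystallins, crygmxl1 was lower with fluoxetine in both states of stress. In vehicle unstressed heads it had 2.52 to 4.79 CPM (median 3.61) and in fluoxetine unstressed heads 0.577 to 1.91 CPM (median 1.35), with no overlap, which 0.484% of all genes tested showed in this direction. The log2 fold change was -1.49 ± 0.32 (adjusted p = 0.0101). In vehicle stressed heads it had 1.89 to 4.10 CPM (median 3.45) and in fluoxetine stressed heads 0.344 to 1.74 CPM (median 0.630). These did not overlap either, as for 4.28% of all genes tested in this direction. The log2 fold change was -1.88 ± 0.33 there (adjusted p = 0.00275). The fold differed between the states of stress by -0.39 ± 0.45 (adjusted p = 0.680). Levels of crygmxl1 were low, with the lowest library at 0.344 CPM, where a count of 0 allows about 0.189 CPM at median depth. The size of its folds is therefore imprecise.

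Direction and size of both folds held in the smaller sets of libraries, while the call did not always. Without libraries 1 to 3 of the vehicle unstressed group they were -1.33 (adjusted p = 0.0415) and -1.87 (adjusted p = 0.00102). With libraries 4 to 6 of every group they were -1.28 and -1.72, and the adjusted p of 0.0894 and 0.0542 missed the threshold. In a fit of the 2 unstressed groups alone the fold of -1.49 missed it too (adjusted p = 0.0567).

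Fluoxetine in stressed larvae gave 0 members higher and 1 lower, crygmxl1, where 5.19% of all genes tested passed (1.88% higher, 3.32% lower). The median log2 fold change was -0.07 over the members and 0.01 over all genes tested, and gamma-M folds were spread to both sides of 0, with 19 above and 11 below. CRYAA came next after crygmxl1. It had 198 to 419 CPM in vehicle stressed heads (median 286) and 96.8 to 206 CPM in fluoxetine stressed heads (median 133), which overlap in the highest fluoxetine library. Its log2 fold change was -1.08 ± 0.37 (adjusted p = 0.0872).

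The third was crygmx, a neighbour of crygmxl2 in the RefSeq assembly GRCz12tu. It had 1082 to 1609 CPM in vehicle stressed heads (median 1376) and 465 to 1025 CPM in fluoxetine stressed heads (median 752), without overlap, as did 4.28% of all genes tested in this direction. The log2 fold change was -0.89 ± 0.40 (adjusted p = 0.207). Its neighbour crygmxl2 had a log2 fold change of -0.10 ± 0.38 (adjusted p = 0.921). CRYAA and crygmx passed when the vehicle unstressed libraries 1 to 3 were left out of the common fit (adjusted p = 0.00786 and 0.00553), with folds as before, and 3 members were then lower, against 7.93% of all genes tested. In a fit of the 2 stressed groups alone 5 members were lower, these 3 with cryba1l2 and CRYGN (ENSDARG00000102129), against 9.20% of all genes tested. With libraries 1 to 3 of every group 11 members were lower (10.3% of all genes tested) and 1 higher, crybg1a (7.97%), and with libraries 4 to 6 there were 0 (0.339% lower, 0.697% higher).

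In unstressed larvae neither CRYAA nor crygmx differed past the threshold with fluoxetine. CRYAA had 39.7 to 335 CPM in vehicle (median 166) and 95.4 to 280 CPM in fluoxetine (median 178), a log2 fold change of -0.04 ± 0.36 (adjusted p = 0.949). The vehicle values were 39.7, 97.2 and 136 CPM in libraries 1 to 3 and 327, 195 and 335 CPM in libraries 4 to 6. The difference between the fluoxetine effects in stressed and unstressed larvae was -1.04 ± 0.51 for CRYAA (adjusted p = 0.337) and -0.86 ± 0.56 for crygmx (adjusted p = 0.457), so no difference between the states of stress was shown.

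**Figure D4:**
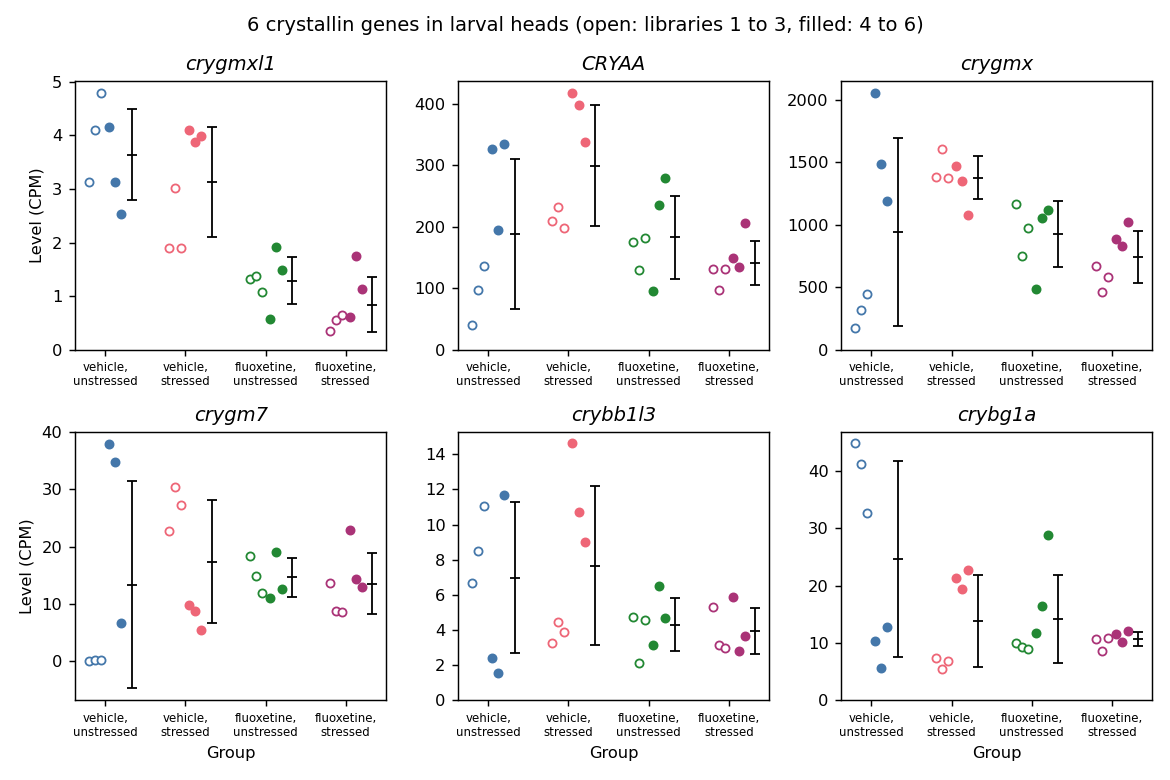
Level in CPM of 6 crystallin genes in each larval head library by group; open points are libraries 1 to 3, filled points libraries 4 to 6, and bars are the mean ± SD of 6 libraries. The fluoxetine values of crygmxl1 lie at 0.344 to 1.91 CPM and its vehicle values at 1.89 to 4.79 CPM, and crygm7, crybb1l3 and crybg1a have wide SD bars in several groups.

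The low-level members crygm7, crybb1l3 and crybg1a, chosen after their values were seen, varied widely within groups. In the order vehicle unstressed, vehicle stressed, fluoxetine unstressed and fluoxetine stressed (n = 6 each), the SD of crygm7 was 18.1, 10.7, 3.41 and 5.26 CPM around means of 13.4, 17.4, 14.7 and 13.6 CPM. That of crybg1a was 17.1, 8.06, 7.65 and 1.21 CPM around 24.6, 13.9, 14.2 and 10.7 CPM, with a fluoxetine unstressed library at 28.8 CPM. That of crybb1l3 was 4.28, 4.54, 1.501 and 1.304 CPM around 6.99, 7.67, 4.30 and 3.96 CPM.

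Other genes of lens fibre structure were listed for comparison. The list held 18 entries, of which 17 were tested in larval heads. Its members named below were picked because they passed the test, or are the lens filament genes. With fluoxetine in stressed larvae 5 of the 17 fell and 0 rose, where 3.32% of all genes tested fell and 1.88% rose. The median log2 fold change was -0.67 against 0.01 over all genes tested. Those that fell included the lens connexin GJA3 (-1.70 ± 0.37, adjusted p = 0.0100) and both entries of MIP, the water channel aquaporin 0. The level of MIP (ENSDARG00000013963) was 245 to 435 CPM in vehicle stressed heads (median 316) and 81.5 to 161 CPM in fluoxetine stressed heads (median 96.7). The groups did not overlap, as for 4.28% of all genes tested in this direction. The log2 fold change of this entry was -1.62 ± 0.32 (adjusted p = 0.0067). The other entry (ENSDARG00000037285) had a log2 fold change of -1.19 ± 0.35 (adjusted p = 0.0499). The number of the 17 that passed as lower was 9 without the vehicle unstressed libraries 1 to 3, 11 in a fit of the 2 stressed groups alone, 10 with libraries 1 to 3 of every group and 0 with libraries 4 to 6. Of all genes tested, 7.93%, 9.20%, 10.3% and 0.339% were lower in these 4 fits.

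With fluoxetine in unstressed larvae 1 of the 17 rose and 2 fell, where 3.55% of all genes tested rose and 7.26% fell. The 1 that rose was lim2.2, a lens membrane protein gene, from a median of 1.07 to 2.27 CPM (0.90 ± 0.28, adjusted p = 0.0415). Its median was 1.60 CPM over larval heads, 4.35 CPM in the hypothalamus and 2.06 CPM in the telencephalon, so it was not particular to libraries with lens. The filament genes BFSP1 and BFSP2 did not pass in stressed larvae, at -1.04 ± 0.54 (adjusted p = 0.290) and -0.20 ± 0.39 (adjusted p = 0.839). Stress in vehicle larvae raised 1 of the 17, caprin2, an RNA-binding protein gene (1.17 ± 0.28, adjusted p = 0.0075), where 5.82% of all genes tested were higher. The median of caprin2 was 2.65 CPM over larval heads, 2.78 CPM in the hypothalamus and 1.24 CPM in the telencephalon. It, too, was not particular to libraries with lens. With stress in fluoxetine larvae 0 of 17 passed, where 2.33% of all genes tested did. The medians of caprin2, unstressed and stressed, were 1.34 and 3.38 CPM in vehicle and 1.99 and 3.85 CPM in fluoxetine heads. The difference between the stress effects passed in 0 of 17 and in 0.133% of all genes tested, so none was shown.

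Regulators of the crystallins gave few calls, while small heat shock relatives gave more with stress in vehicle. Among 13 lens transcription factor entries MAF (ENSDARG00000015890) fell with stress in vehicle (-1.09 ± 0.24, adjusted p = 0.0038), where 15.4% of all genes tested were lower. PROX1 (ENSDARG00000055158) fell with fluoxetine in stressed larvae (-0.45 ± 0.13, adjusted p = 0.0493), where 3.32% were lower. Among 8 tested of 9 small heat shock relatives of the alpha crystallins, stress in vehicle gave 4 lower (HSPB1, HSPB2, hspb6, HSPB7) and 1 higher (hspb11). Of all genes tested 15.4% were lower there and 5.82% higher. Stress in fluoxetine gave 1 higher, hspb9 (2.38 ± 0.56, adjusted p = 0.0187), where 1.9% of all genes tested were higher. HSPB2, hspb6 and HSPB7 are muscle genes in mammals. The 9 small heat shock relatives summed to 69.3 to 72.6 CPM in vehicle unstressed libraries 1 to 3. In libraries 4 to 6 the sum was 37.2 to 53.9 CPM, and in vehicle stressed heads 43.35 to 69.9 CPM. The summed level of the skeletal muscle genes was 2143 to 14880 CPM in stressed vehicle heads. In unstressed vehicle heads it was 32210 to 40390 CPM in libraries 1 to 3 and 5256 to 9498 CPM in libraries 4 to 6. The part of the muscle genes in the calls on heat shock genes was not tested. No refit without libraries 1 to 3 is given for these calls or for that on MAF. HSPB7 was also lower with fluoxetine in unstressed larvae (-2.20 ± 0.40, adjusted p = 0.0037), where 6 of the 31 muscle genes and 7.26% of all genes tested were.

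Position in the genome was read from the RefSeq table of the assembly GRCz12tu, in which 51 of the 60 member symbols were found, and 56 with synonyms. There 31 crystallin genes, crygm2c to crygs3, follow each other with no other protein-coding gene between them. Other members stand in pairs of a beta-A and a beta-B gene, as cryba1l2 with crybb1l2, crybb1 with cryba4 and crybb1l1 with cryba1l1. The ratio between sets of libraries was not the same within a pair. In larval heads the ratio of vehicle unstressed libraries 4 to 6 to 1 to 3 was 9.0 for cryba1l2 and 5.27 for crybb1l2, against 4.29 for CRYBB1 and 3.51 for CRYBA4. The genes crygm3 and crygs4 overlap in that assembly, as do cryba1a and crybb1l3, so reads could be assigned to either gene of such a pair.

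Most crystallins were under 1 CPM in the adult brain. Of the 60 members, 51 were under 1 CPM in each of the 48 adult libraries, and 5 had no count in any. Those 5 were crygm2c, crygm2e, crygm2f, crygm5 and crygmxl1. A count of 0 allows about 0.168 CPM in a hypothalamus library and 0.163 CPM in a telencephalon library of median depth, counting error alone considered. CRYAA was at 0 in 23 of 24 hypothalamus and 21 of 24 telencephalon libraries. The 21 crygm2d genes summed to at most 1.78 CPM in any adult library, against 12530 to 62930 CPM in larval heads.

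The crystallin-type gene with the most counts in the adult brain was the beta/gamma-like crybg1b. It had 45.6 to 122 CPM in the hypothalamus (median 70.8) and 77.0 to 171 CPM in the telencephalon (median 104), and 21.2 to 56.8 CPM in larval heads. The chaperone gene CRYAB (ENSDARG00000101380) had a median of 5.10 CPM in the hypothalamus and 2.46 CPM in the telencephalon. For crybg1a the medians were 4.03 and 3.79 CPM. The beta/gamma-like crybgx had means of 0.0255 CPM in the hypothalamus and 0.0188 CPM in the telencephalon, against 1775 CPM in larval heads. The beta crystallin crybb1l2 had 0.229 to 1.39 CPM in the hypothalamus and 1.98 to 5.75 CPM in the telencephalon, without overlap between the tissues.

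**Figure D5:**
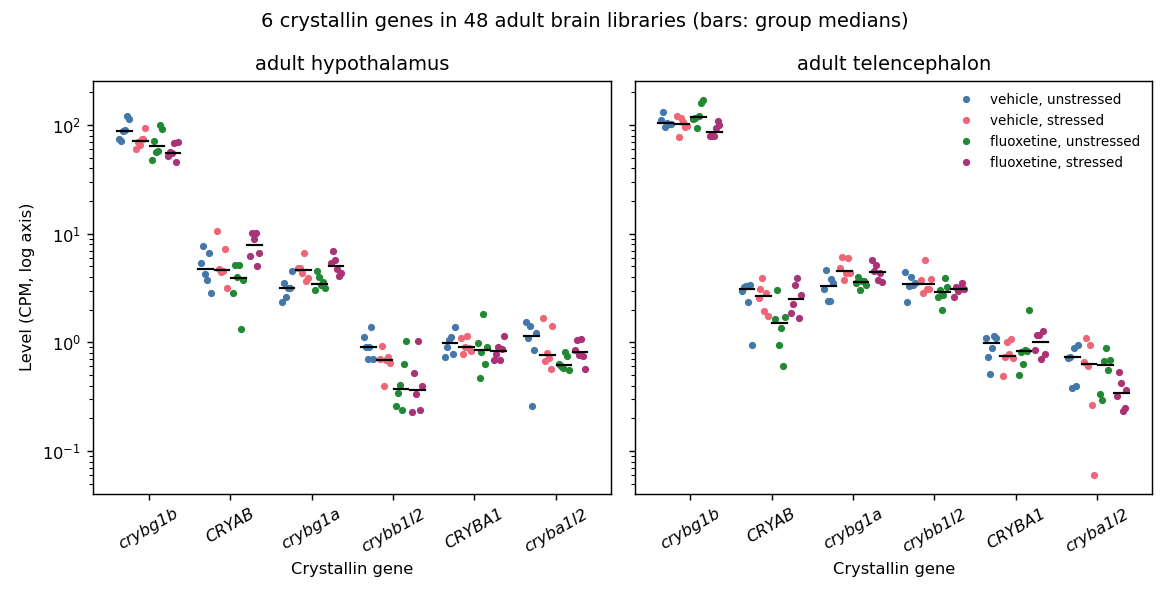
Level in CPM (log axis) of 6 crystallin genes in each adult library, by group (colour), in the hypothalamus (left) and the telencephalon (right), n = 6 libraries per group; bars are group medians. crybg1b lies at 45.6 to 171 CPM, and crybb1l2 is at most 1.39 CPM in the hypothalamus and at least 1.98 CPM in the telencephalon.

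Between larval heads and adult brain, vehicle unstressed libraries were compared in a fit of 18 libraries. Of the 49 members in this fit, most had passed the filter on low counts through their larval libraries, since 9 passed it among hypothalamus and 8 among telencephalon libraries. There 46 were higher in larval heads and 2 lower, where 73.9% of all genes tested passed (42.8% higher, 31.1% lower). The 2 lower in larvae were crybg1b (log2 fold change -1.70 ± 0.18, adjusted p = 5.90e-08) and CRYAB (ENSDARG00000101380; -1.92 ± 0.42, adjusted p = 0.000461). The larval samples were heads, in which lens and photoreceptor genes were present, and the adult samples were brain regions. Photoreceptor genes were also counted in adult libraries. The 36 entries summed to 26.5 to 3049 CPM in the hypothalamus and to 16.5 to 4075 CPM in the telencephalon. In larval heads they summed to 7299 to 16700 CPM. The source of the adult photoreceptor counts was not tested. Larval and adult libraries also carried separate ranges of library numbers, so age, tissue and library number cannot be told apart. Between the adult regions crybb1l2 was lower in the hypothalamus (-1.80 ± 0.54, adjusted p = 0.0193), where 22.5% of all genes tested passed (10.2% higher, 12.2% lower). The other call was on crybb1l3, which was at most 0.171 CPM in the hypothalamus, near the level that a count of 0 allows, and at most 0.702 CPM in the telencephalon, so no fold is given.

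In the hypothalamus 9 members passed the filter on low counts. Stress in vehicle fish gave 1 higher, crybg1a, where 36.8% of all genes tested passed (20.3% higher, 16.5% lower). Its level was 2.34 to 4.53 CPM unstressed (median 3.14) and 3.70 to 6.61 CPM stressed (median 4.596), which overlap, at a log2 fold change of 0.55 ± 0.17 (adjusted p = 0.0161). In fluoxetine fish the log2 fold change of crybg1a was 0.515, not called in edgeR but called by DESeq2 (adjusted p = 0.0382). No difference between the stress effects on crybg1a was shown. Stress in fluoxetine fish gave 1 higher, CRYAB (ENSDARG00000101380), where 6.49% passed (3.6% higher, 2.89% lower). Its level was 1.33 to 5.19 CPM unstressed (median 3.88) and 5.09 to 10.1 CPM stressed (median 7.83), which overlap narrowly, at a log2 fold change of 1.08 ± 0.30 (adjusted p = 0.0333).

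The stress effect on CRYAB in the hypothalamus was not shown to differ with fluoxetine. In vehicle fish CRYAB had 2.84 to 7.76 CPM unstressed and 3.14 to 10.6 CPM stressed, and the difference between the effects was 0.90 ± 0.43 (adjusted p = 0.320). Fluoxetine in unstressed fish gave 1 lower, crybb1l2, where 24.4% passed (16.5% higher, 7.89% lower), from a median of 0.913 to 0.375 CPM (log2 fold change -1.01 ± 0.37, adjusted p = 0.0457). That call was lost with the replicate block (-1.02, adjusted p = 0.0512), with no filter (adjusted p = 0.0689) and in libraries 4 to 6 (-0.68, adjusted p = 0.549). Fluoxetine in stressed fish gave 0 of 9, where 2.07% of all genes tested passed (0.805% higher, 1.26% lower), with 1 member at an unadjusted p under 0.05. The difference between the stress effects also gave 0 of 9, where 0.511% passed (0.18% higher, 0.332% lower), again with 1 such member. DESeq2 called 0 in both.

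In the telencephalon 8 members were tested. Stress in vehicle fish again gave crybg1a as higher, where 26.8% of all genes tested passed (15% higher, 11.8% lower). Its level was 2.42 to 4.59 CPM unstressed and 3.74 to 6.11 CPM stressed, at a log2 fold change of 0.56 ± 0.16 (adjusted p = 0.0134), close to the value in the hypothalamus. In fluoxetine fish the log2 fold change of crybg1a was 0.356, which did not pass, and no difference between the stress effects was shown. Stress in fluoxetine fish gave 1 lower, crybg1b, where 13.6% passed (6.35% higher, 7.26% lower). Its level was 94.7 to 171 CPM unstressed (median 118) and 79.1 to 110 CPM stressed (median 86.9), at a log2 fold change of -0.52 ± 0.13 (adjusted p = 0.0095). Fluoxetine in unstressed fish, in stressed fish and the difference between the stress effects gave 0 of 8, where 7.81% (4.88% higher, 2.93% lower), 3.51% (1.16%, 2.35%) and 0.8% (0.245%, 0.555%) of all genes tested passed, with 1, 0 and 1 members at an unadjusted p under 0.05; DESeq2 called 0 in each.

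Adult libraries 1 to 3 and 4 to 6 of each group carried different ranges of library numbers. Within either range the calls on crybg1a in both regions and on CRYAB were lost, with folds of the same sign. For crybg1a the log2 fold changes were 0.71 and 0.40 in the hypothalamus and 0.53 and 0.58 in the telencephalon, and for CRYAB 1.07 and 1.098. These fits hold 3 libraries per group. In telencephalon libraries 1 to 3 the fold of crybg1b was -0.45 and missed the threshold (adjusted p = 0.170), and in libraries 4 to 6 it passed.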

How the data were processed

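Stranded mRNA libraries of 72 pools were sequenced by the authors and deposited as 1 table of raw counts per gene, with 31901 Ensembl entries and the d4EGFP reporter. The submitters' processing notes name bcl2fastq 2.17.1.14, cutadapt, STAR 2.5 and DESeq2. Which program counted the reads, on which strand, and from which build and annotation is not given in the sources used here. How reads shared by near-identical crystallin copies were counted is unknown too.

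Symbols were joined to the entries from a table of gene names. Counts were tested with edgeR 4.0.16 (robust quasi-likelihood, TMM, filterByExpr with a minimum count of 10 and total of 15) in R 4.3.3, per tissue with 4 groups and 5 comparisons, and in a fit of the 18 vehicle unstressed libraries with 2 comparisons. P-values were adjusted by Benjamini-Hochberg over all genes tested in a comparison, with a threshold of 0.05. Errors of log2 fold changes are approximate standard errors. Each is the absolute log2 fold change divided by the square root of its quasi-likelihood F statistic. All adjusted p-values are from these fits unless DESeq2 1.42.0 is named. Sentences that report "without libraries" or "libraries 4 to 6" are refits of the whole table. The larval refits on libraries 1 to 3 or 4 to 6 were added after seeing the data. The floor of detection is 3 counts in a library, counting error only.

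On simulated data for larval fluoxetine against vehicle in unstressed heads, with 20127 genes, 136 of 200 2-fold changes (68%) were recovered with 2 false calls. The changes were put in genes with a mean above 2 CPM, and libraries were drawn around a common mean per gene. The separate sets of libraries in the vehicle unstressed group were not simulated, so these rates need not hold for the crystallins. No 2 libraries of a group agreed within sampling noise. Replicate numbers were not shown to pair the samples throughout: in 0 of 6 pairs of groups per tissue did every pair of same-numbered libraries correlate above 0.1. That rule can miss a partial pairing. Between vehicle unstressed and fluoxetine unstressed hypothalamus libraries, 5 of 6 same-numbered pairs correlated above 0.1. There 5 libraries correlated best with the library of their own number.

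The members and gene lists were chosen with earlier results of these data known. Genes named are the alpha entries, the 3 members of each family with the most counts in larval heads, members past the threshold (or the lowest p-values where few passed), the 5 with the most counts in each adult region, and those said to be chosen after their values were seen. Alternatives were DESeq2, its size factors (RLE), no filter on low counts, a replicate block, fits of only the 2 groups compared, subsets of libraries, and a term for the range of adult library numbers. Results of some genes of the lens structure list are not reported here.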

Additional observations from a re-analysis of the deposited data

Results flagged for a closer look

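Of 132 groups of 6 libraries examined for an outlying value, 2 held a library far from the other 5. The test was Dixon's, which by chance flags about 0.05 of groups. In the telencephalon, replicate 3 of the vehicle stressed group had 5.749 CPM of crybb1l2 (ENSDARG00000016793), a beta-B crystallin, and the nearest other library had 3.807 CPM. In the same region, replicate 6 of the fluoxetine unstressed group had 1.986 CPM of CRYBA1 (ENSDARG00000041141), a beta-A crystallin, and the nearest other had 0.8424 CPM. Neither gene passed a test between treatment or stress groups of the telencephalon. The 132 groups did not cover every tested member in every tissue, so other members can hold outlying values. In hypothalamus libraries of fluoxetine unstressed fish, CRYBA4 had 0.138 CPM in replicate 6 and at least 0.4305 CPM in the others.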

How the results depend on the processing

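Counts of members called, either direction, were within 1.5 times the reported count in 91 of the refits and outside it in 27. For larval stress in vehicle they were 3 with DESeq2, 1 with the replicate block and 49 with libraries 1 to 3 of every group, against 0. For larval fluoxetine in unstressed heads they were 15 with DESeq2, 0 with only the 2 groups, 51 with libraries 1 to 3 and 0 with libraries 4 to 6, against 3. For larval fluoxetine in stressed heads they were 2 with DESeq2, 3 without vehicle unstressed libraries 1 to 3, 5 with only the 2 groups, 12 with libraries 1 to 3 (11 lower, 1 higher) and 0 with libraries 4 to 6, against 1. The larval difference between stress effects had 49 with libraries 1 to 3, against 0. Where the vehicle unstressed group was used, larval counts with libraries 1 to 3 restate its low crystallin level in those libraries. The cause of the differences between tools was not tested; subsets of 3 hold fewer samples.

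In the hypothalamus, stress in vehicle gave 2 with the replicate block or the library range term (crybg1b added) and 0 in either set of 3 libraries. There stress in fluoxetine gave 2 with DESeq2 (crybg1a added) and 0 with no filter or in either set, and fluoxetine in unstressed fish gave 0 with no filter or in libraries 4 to 6 and 2 with the range term. In the telencephalon, stress in vehicle gave 0 in either set, and stress in fluoxetine 0 in libraries 1 to 3.

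Same-numbered libraries were not shown to pair throughout, and a partial pairing was not excluded, least of all between the unstressed hypothalamus groups. The replicate block is therefore a hint only. Apart from the comparisons above it left each count of calls within 1.5 times, for instance 2 for larval fluoxetine in unstressed heads and 1 in stressed heads. In the hypothalamus with fluoxetine in unstressed fish the count stayed at 1 while the gene differed: the block lost crybb1l2 (-1.02, adjusted p = 0.0512) and called crybg1b (-0.41, adjusted p = 0.0228). Folds were tallied for selected pairs of a named member and a comparison, not for every member in every comparison. In that tally 5 changed sign, all of them uncalled. In libraries 4 to 6 the larval difference between stress effects was 0.21 for crygm2d5 and 0.18 for crygm2d20. There that of cryba1l2 in the hypothalamus was -0.035 and the telencephalon fluoxetine fold of crybg1b in stressed fish 0.018. In libraries 1 to 3 the telencephalon fluoxetine fold of crybg1b in unstressed fish was -0.070. A further 417 folds of the tally kept side and sign, 22 lost a call and 14 gained one. The tally does not show that larval folds were stable. Over all 54 tested members, folds of larval stress in vehicle were above 0 in 49 with all libraries. Without vehicle unstressed libraries 1 to 3 they were above 0 in 11. For fluoxetine in unstressed larvae these numbers were 45 and 31.

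Depth limits the adult values: a count of 0 allows up to 0.168 CPM in the hypothalamus and 0.163 CPM in the telencephalon. For CRYAA with fluoxetine in stressed heads, the standard error of the log2 fold change was 0.37 with the vehicle unstressed libraries 1 to 3 and 0.25 without them.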
